A study of Mus musculus with 97 samples.

Results

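Of the 19962 genes in the mouse whole-transcriptome panel, 82 lay above background in cortex of APOE3 mice given doxorubicin plus docetaxel (DD) or vehicle, and these 82 genes are described here. A gene was taken as above background when its count exceeded the negative probe, a pool of control probes with no target in the genome, by more than 2-fold in the median of the 17 libraries (9 DD and 8 vehicle). Each library is 1 captured region of an 8 µm brain section, in which hybridised probes released their tags under ultraviolet light for sequencing. All mice of both groups were older animals whose own Apoe gene was replaced by human APOE3, and the region captured was cortex. DD mice had received, into the peritoneum, docetaxel (10 mg/kg a week) together with doxorubicin (3 mg/kg a week), split over 2 injections per week for 2 weeks, and vehicle mice a mixture of 50% DMSO and 50% PBS. The fit and the later comparisons also used APOE4 mice, hippocampus, and mice given doxorubicin (3 mg/kg a week) plus cyclophosphamide (40 mg/kg a week), called DC. Labels do not give the animal behind a region, so the region was the unit throughout. If some regions of a group come from the same animal, p-values between groups of mice, exact or adjusted, are smaller than they should be. Where hippocampus is compared with cortex, regions of 1 animal may stand on both sides, and the p-values may then be too small or too large. The study asked about inflammatory, metabolic and neuroprotective genes after combined chemotherapy.

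Doxorubicin intercalates into DNA and traps topoisomerase II on it, which breaks the strands and activates the p53 response. Docetaxel binds tubulin and stabilises microtubules. Neither drug enters the healthy brain readily. APOE, made in the brain mainly by astrocytes, carries cholesterol and other lipids between cells.

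The choice of 82 genes depended on the ratio set: 249 genes passed at a ratio of 1.5 and 54 at a ratio of 3. Just inside the limit lay Cox8a, a subunit of cytochrome c oxidase, at 2.09 times the negative probe, and Stmn1, Tbcel, Hsp90aa1 and Rusc2 at 2.07 times. Genes just outside included the autophagy protein Atg12, the ribosomal protein Rpl41, the lymphocyte GTPase Gimap1 and the cytochrome c oxidase subunit Cox6a1, all at 1.99 times. Of the 82 genes, 25 exceeded the negative probe more than 10-fold and 28 lay between 2 and 3 times. The annotation table held 81 of them, 80 as protein-coding genes. Together the 82 genes held 3.95% to 11.9% of all counts in a library, with a median of 8.55%. Those totals include a value of at least 1, the lowest in the table, for each of the 19962 genes. The percentage is therefore not a share of the counts above that lowest value. The median gene of the whole panel lay at 0.915 times the negative probe. In many libraries the negative probe itself lay near the lowest value of 1, so a ratio just over 2 rests on few counts.

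Mtch2 and Ripply2 were the 2 genes that passed the test between DD and vehicle, both lower after DD. Mtch2 encodes an outer mitochondrial membrane protein that inserts tail-anchored proteins and receives the death factor tBID. Ripply2 is a corepressor that silences T-box factors when somites form. In mm10, Mtch2 spans 90847090 to 90866810 of chromosome 2 and Ripply2 spans 87015537 to 87020441 of chromosome 9, both on the plus strand. The sequences before their start sites, from RefSeq on GRCm38.p6 (the mm10 assembly), are shown because both genes moved in the same direction; each runs 5′ to 3′ up to the base before the gene, and capitals mark CpG dinucleotides.
Mtch2, chr2:90846905-90847089: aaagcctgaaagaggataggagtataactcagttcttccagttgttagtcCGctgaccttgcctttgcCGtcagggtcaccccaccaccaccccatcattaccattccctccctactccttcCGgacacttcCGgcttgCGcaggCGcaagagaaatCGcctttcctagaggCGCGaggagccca
Ripply2, chr9:87015287-87015536: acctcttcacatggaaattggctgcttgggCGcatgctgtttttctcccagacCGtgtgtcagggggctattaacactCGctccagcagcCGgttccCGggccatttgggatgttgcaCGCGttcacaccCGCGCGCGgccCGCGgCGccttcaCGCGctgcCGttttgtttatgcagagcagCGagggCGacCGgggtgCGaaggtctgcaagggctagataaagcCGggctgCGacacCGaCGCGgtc
The Mtch2 window of 185 bases held 9 CpG dinucleotides, against a median of 4 over all promoter windows of that length, and the Ripply2 window of 250 bases held 26, against a median of 6. On both strands of either window, the GC box core GGGCGG had 0 matches, as did the TATA box core TATAAA and the p53 half-site. Over the 32851 promoter windows cut to their first 185 and 250 bases, GGGCGG occurred in 21.8% and 32.7%, TATAAA in 8.55% and 12.4%, and the p53 half-site in 5.46% and 7.13%. The CpG medians come from the same cut windows, which were not aligned to their gene starts as the 2 sequences above are.

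The negative probe was higher in the DD libraries than in the vehicle libraries. In vehicle it lay near the lowest value in the table, 1, and the DD libraries with the largest total counts had its highest values. The negative probe ranged from 1.06 to 1.36 counts in vehicle (median 1.11) and from 1.09 to 2.88 after DD (median 1.45). It was 1.41-fold higher after DD (two-sided exact permutation p = 0.0156, 0.0469 after Benjamini-Hochberg adjustment over 3 library measures). Total counts ran from 24333 to 36359 in vehicle (median 25153) and from 24040 to 72867 after DD (median 36699), 1.45-fold higher (exact permutation p = 0.0434). Each total includes at least 1 for every one of the 19962 genes, so 1.45-fold is not the difference in counts above that lowest value. The lowest value in the table is 1, and the share of genes at it was 62.1% to 89.8% in vehicle (median 86.2%) and 17.1% to 88.7% after DD (median 60.9%; exact permutation p = 0.0360, adjusted 0.0539). The groups overlapped in all of these measures: DD libraries 4 to 8 stood above every vehicle library in total count, and the other 4 lay between 24040 and 29141. With neighbouring wells of 1 group averaged into runs, 5 DD runs stood against 4 vehicle runs, where the smallest possible p is 0.0159. The exact permutation p was then 0.0952 for the negative probe, 0.270 for total count and 0.190 for genes at the lowest value.

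**Figure D1:**
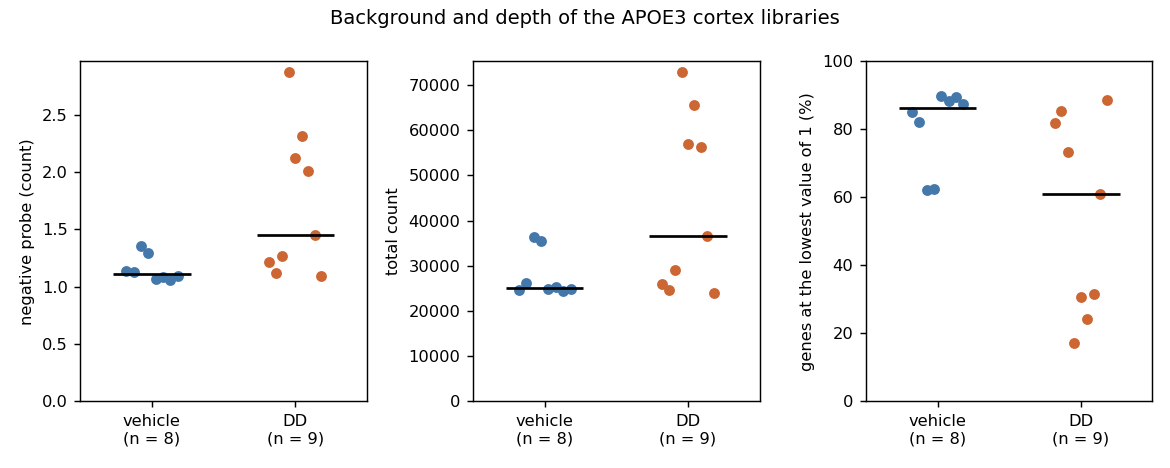
Negative probe value (count), total count and percentage of genes at the lowest value of 1, with 1 point per APOE3 cortex library (8 vehicle, 9 DD) and a bar at the median. The DD libraries spread from the vehicle level up to a total count of 72867 and a negative probe value of 2.88.

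In the quasi-likelihood test of edgeR, fitted to all 49 cortex libraries with Benjamini-Hochberg adjustment, 57 genes passed the filter on low counts, 54 of them above the negative probe limit and 3 (Lat, Nemp2 and Rgs19) below it. The 28 genes that were above the limit but not tested had ratios of at most 3.77. Of the 57, 3.51% were called (2 genes, both lower after DD; 5 had an unadjusted p under 0.05). The median log2 fold change was 0.049 over the 54 genes and 0.070 over all 57. Estimates lay above 0 for 29 of the 54 and below 0 for 25. Estimates lay within 1.2-fold of no change for 37 and within 1.5-fold for 51, with a median SE of 0.23 on the log2 scale. By the groups' ranges, 0.0% of the tested genes separated: neither scaled log2 CPM (log2 of counts relative to the scaled library size) nor the share of tested counts put all DD libraries on one side of all vehicle libraries for any of the 57.

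**Figure D2:**
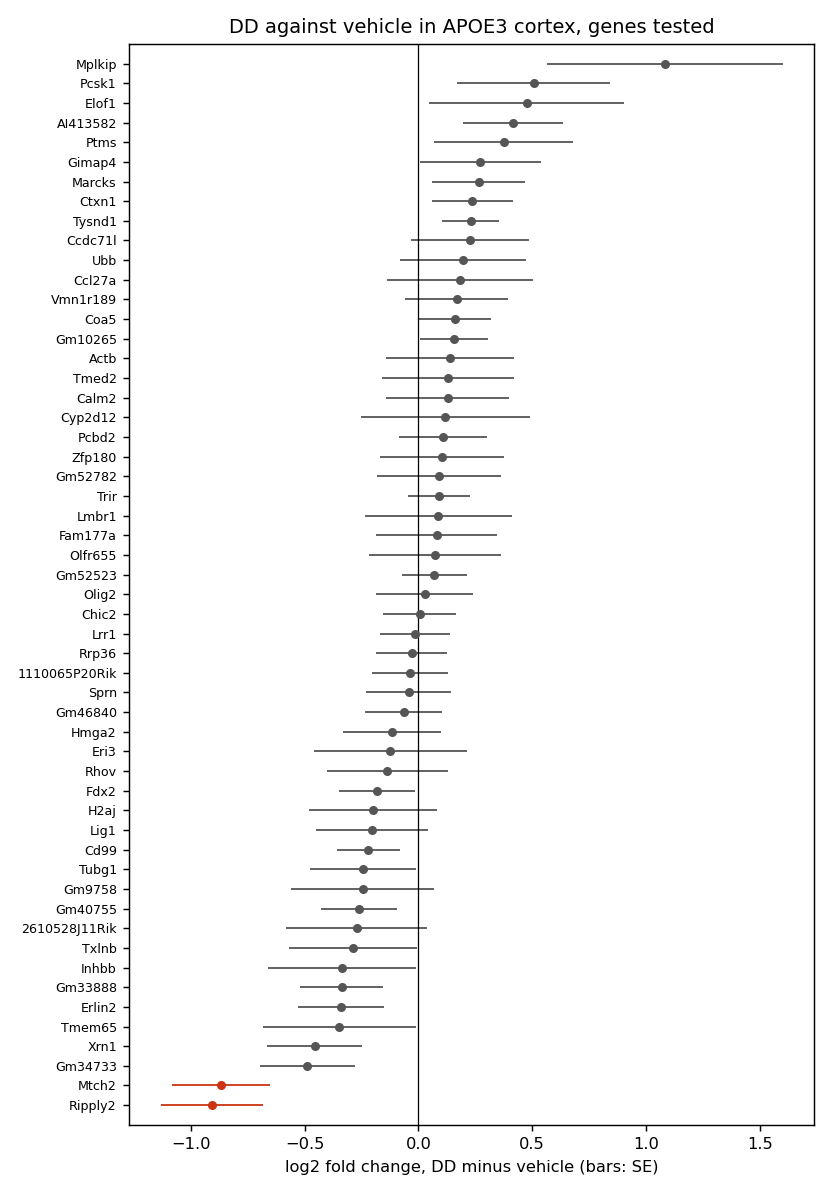
Log2 fold change of DD minus vehicle in APOE3 cortex for the 54 genes above the negative probe limit that were tested, with bars of 1 SE; red points are the genes with an adjusted p under 0.05. Mtch2 (-0.87) and Ripply2 (-0.91) stand apart at the low end, and the widest error belongs to Mplkip at the high end (1.08, SE 0.52).

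Mtch2 gave the strongest signal of the panel in these libraries, with a median ratio of 568 to the negative probe. Its counts ran from 294 to 1334 in vehicle libraries (median 844.5) and from 229 to 1635 after DD (median 949), and the counts as such did not separate the groups (exact permutation p = 0.733). As a share of the counts of the 57 tested genes, Mtch2 held 25.6% to 46.8% in vehicle (median 33.8%) and 17.3% to 28.7% after DD (median 22.0%). All 9 DD libraries lay below the vehicle median share, and the ranges overlapped between 25.6% and 28.7% (exact permutation p = 0.000740 over libraries; over runs it was 0.0159, which is the smallest possible). After scaling, the DD level of Mtch2 was 1.82-fold under the vehicle level (log2 -0.87 with an SE of 0.22; adjusted p = 0.00450 by edgeR), and 9 of 9 DD libraries lay under the vehicle mean. The summed counts of the other 56 tested genes were 1.61-fold higher after DD, a difference that did not exceed the spread between libraries (exact permutation p = 0.159). In bulk regions such as these, fewer cells of a type and less RNA per cell cannot be told apart.

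A second measure was set against a single gene: the count of Mtch2 divided by that of Gm10265, the predicted gene with the next strongest signal. It ran from 1.52 to 6.52 in vehicle (median 3.16) and from 1.07 to 2.70 after DD (median 1.48), 2.01-fold lower (exact permutation p = 0.00280, adjusted 0.00559 over the 2 genes tested so, and 0.0317 over runs). All 9 DD libraries lay below the vehicle median. Such a ratio shows unequal change of the 2 genes and does not say which of them moved. Mtch2 and Ripply2 were taken from the 57 tested genes because edgeR called them in these same libraries. The exact p-values of their shares and of these ratios do not allow for that choice and add no independent support.

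Ripply2 was measured from far fewer counts. It had 8 to 64 counts in vehicle (median 31) and 3 to 76 after DD (median 29), with a median ratio of 18.8 to the negative probe over all 17 libraries. Its share of tested counts was 0.600% to 1.76% in vehicle (median 1.26%) and 0.184% to 1.02% after DD (median 0.830%). All 9 DD libraries lay below the vehicle median, but 3 of the 8 vehicle libraries fell inside the DD range. The exact permutation p of the share was 0.0692 over libraries and 0.222 over runs. Mean shares of the vehicle runs were 0.738%, 1.61%, 1.71% and 0.842%, against 0.184% to 1.01% in the DD runs. The vehicle median thus lay between the lower and the higher vehicle runs. After scaling, the DD level of Ripply2 was 1.88-fold under that of vehicle (log2 -0.91 with an SE of 0.22; adjusted p = 0.00450 by edgeR), again with 9 of 9 DD libraries under the vehicle mean. Divided by Gm10265 it was 2.05-fold lower (exact permutation p = 0.0350, and 0.159 over runs). DD library 3, with 3 counts, was the lowest by far; without any 1 of the 17 libraries the log2 value stayed between -1.02 and -0.80.

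**Figure D3:**
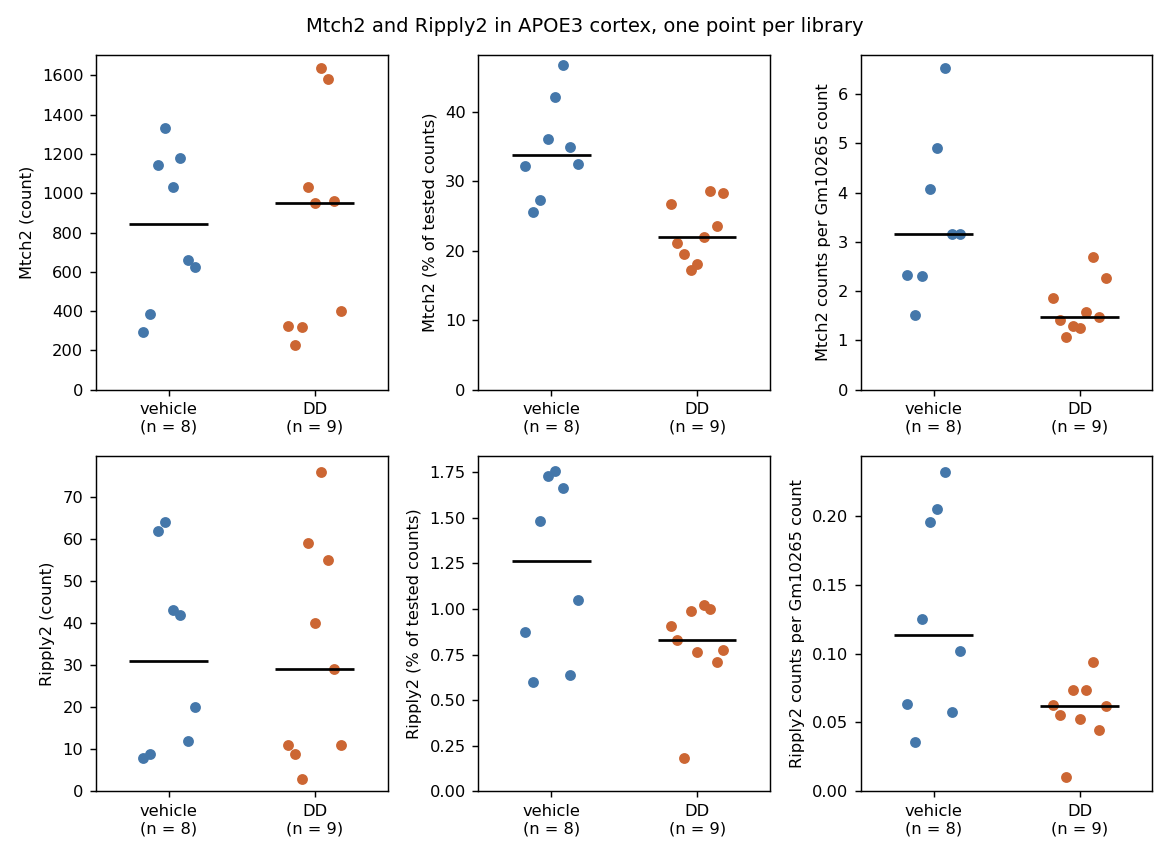
Mtch2 (top row) and Ripply2 (bottom row) in each APOE3 cortex library, as counts, as a percentage of the counts of the 57 tested genes and as counts per Gm10265 count; points are libraries and bars are medians (8 vehicle, 9 DD). Counts overlap throughout, while every DD point lies below the vehicle median in both kinds of ratio.

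Both calls held by DESeq2 (adjusted p = 0.000667 for the smaller) and without each single library, and both ended when counts were summed over runs of wells (log2 -0.91 for Mtch2 and -0.94 for Ripply2, adjusted p = 0.0592 each), when libraries were scaled to the negative probe (log2 -0.66 for Mtch2 and -0.69 for Ripply2, adjusted p = 0.845 each), when the minimum count was lowered to 5 (-0.83 and -0.87, adjusted p = 0.0628 and 0.0923) and without a filter (-0.49 and -0.56, adjusted p = 0.983 each). Among libraries with a total count under 30000 (4 DD, 6 vehicle) the log2 values were -0.75 and -0.99 with neither called, and among those over 30000 (5 DD, 2 vehicle) they were -0.75, not called, and -1.05, called. The 2 vehicle libraries over 30000 both belonged to 1 run, with a mean Ripply2 share of 1.61%. Without scaling factors the calls were 1 lower (Mtch2) and 1 higher (Tysnd1) in place of 2 lower, and Ripply2 had an adjusted p of 0.0670.

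The ratio to the negative probe chose the 82 genes in these same libraries, so its values by group are a description. The median of the DD libraries exceeded that of the vehicle libraries for 67 of the 82 genes and was below it for 15. The scaled estimates above lay on both sides of 0. Over all 19962 genes the DD median was the higher for 32.3%. Most genes of the panel lie at background, where a higher negative probe by itself lowers the ratio, so that share is no yardstick for the 82. Ratios compare a probe with background and are not calibrated between probes. Mtch2 went from a median ratio of 732 in vehicle to 368 after DD and Ripply2 from 28.5 to 18.8, while Gm10265 went from 197 to 279.

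**Figure D4:**
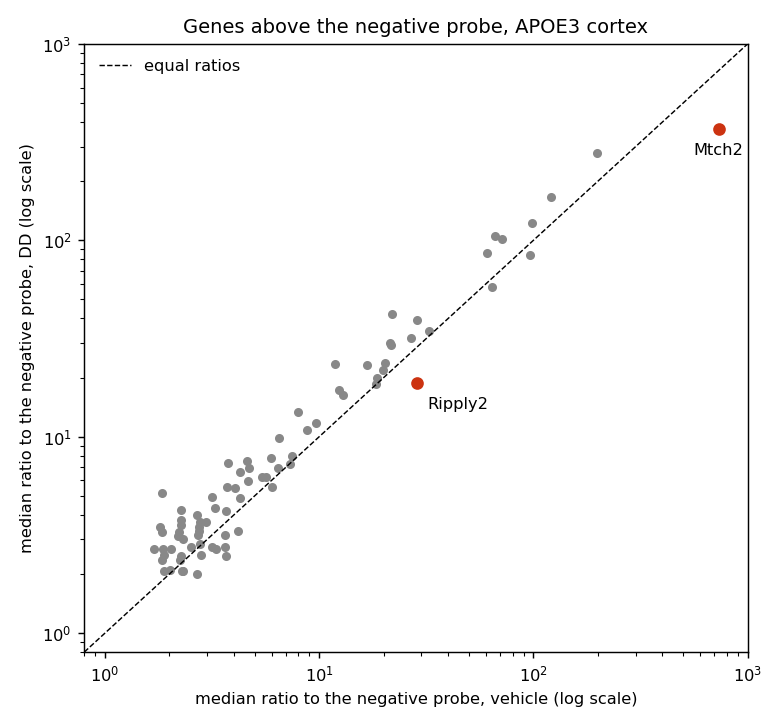
Median ratio to the negative probe in vehicle (x axis, 8 libraries) against that after DD (y axis, 9 libraries), both on log scales, for the 82 genes; the dashed line marks equal ratios. Of the 82 genes, 67 lie above the line, and Mtch2 and Ripply2 (red) lie below it.

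Mitochondrial genes numbered 5, of which 4 were tested and 1, Mtch2, was lower. Coa5, needed to assemble cytochrome c oxidase, had 14 to 61 counts in vehicle (median 23) and 17 to 109 after DD (median 53), with a log2 fold change of 0.16 (SE 0.16, adjusted p = 0.748). Fdx2, the ferredoxin of iron-sulfur cluster assembly, had 9 to 58 and 9 to 85 counts and a log2 fold change of -0.18 (SE 0.17). Tmem65, an inner membrane protein, had at most 14 counts and a value of -0.35 (SE 0.34). None of these 3 passed, and Cox8a, with medians of 2.5 and 6 counts, was not tested. The mitochondrial lists had no other gene above the limit: 4 of 11 genes of membrane and assembly and 1 of 15 oxidative phosphorylation subunits.

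Transcription regulators numbered 5, with 4 tested and Ripply2 lower. Hmga2, a DNA-bending chromatin protein of embryonic cells, was the strongest at 34.6 times the negative probe, with 10 to 76 counts in vehicle (median 35) and 13 to 135 after DD (median 73). Olig2, the master factor of the oligodendrocyte lineage, had 4 to 25 counts in vehicle (median 10.5) and 4 to 48 after DD (median 21), and a log2 fold change of 0.028 (SE 0.21, adjusted p = 0.927). The zinc finger protein Zfp180 stood at 0.10 (SE 0.27), and the homeobox gene Hmx1, with medians of 2.5 and 3 counts, was not tested. Counts of Hmga2 and Olig2 reached higher in the DD libraries, whose totals were also higher, while their scaled values overlapped between the groups and did not pass.

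Genome maintenance, the process that repairs DNA damage, had 3 genes above the limit, all tested and none called. Lig1, the DNA ligase of replication and excision repair, had 1 to 23 counts in vehicle (median 5) and 1 to 26 after DD (median 10), with a log2 fold change of -0.20 (SE 0.25). Elof1, an elongation factor that also acts in transcription-coupled repair, had 1 to 6 and 1 to 17 counts and a value of 0.48 (SE 0.43, adjusted p = 0.748). Mplkip, mutated in a form of trichothiodystrophy, had the highest estimate of all, 1.08 (SE 0.52, adjusted p = 0.462), from 1 to 9 counts in vehicle (median 2) and 1 to 44 after DD (median 10). That estimate rested on DD library 2, which held the 44 counts; without it the value was 0.22 (SE 0.34, adjusted p = 0.905). The histones H2aj (-0.20, SE 0.28) and H4c11 (not tested) showed no called difference.

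RNA processing and decay had 6 genes above the limit, 4 of them tested and none called. Xrn1, the cytoplasmic 5′ to 3′ exoribonuclease, had 11 to 58 counts in vehicle (median 18) and 7 to 67 after DD (median 39). The log2 fold change of Xrn1 came to -0.46 (SE 0.21, adjusted p = 0.462), and 8 of 9 DD libraries lay under the vehicle mean. Trir, an exoribonuclease that binds the telomerase RNA component, stood at 0.089 (SE 0.14) with 13 to 78 and 16 to 178 counts, the tightest estimate of this group. The ribosomal RNA processing factor Rrp36 had a value of -0.030 (SE 0.15) and the exoribonuclease Eri3 one of -0.12 (SE 0.34). The mRNA export factor Alyref and the ribonuclease Rnaset2a were not tested.

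Microtubule proteins, the class docetaxel acts on, were represented by 3 genes, Tubg1 at 7.30 times the negative probe and Stmn1 and Tbcel just inside the limit. Tubg1, the gamma-tubulin that nucleates microtubules, had 4 to 21 counts in vehicle (median 8) and 2 to 45 after DD (median 13), with a log2 fold change of -0.24 (SE 0.23, adjusted p = 0.748) that turned to 0.014 without scaling factors. Stmn1, which destabilises microtubules, had medians of 2 and 3 counts and Tbcel, a tubulin-binding cofactor, 2.5 and 3, and neither was tested. Of the 12 genes of the list of tubulins and docetaxel targets in the panel, 1 (Stmn1) was above the limit, and Tubb3, the neuronal beta-tubulin, lay at 1.04 times the negative probe.

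The ubiquitin system had 3 genes, with 2 tested and none called. Lrr1, a substrate receptor of a cullin ubiquitin ligase, had 55 to 248 counts in vehicle (median 108) and 57 to 496 after DD (median 248), and had a median ratio of 101. The polyubiquitin gene Ubb had 4 to 13 and 1 to 30 counts and a log2 fold change of 0.20 (SE 0.28). The deubiquitinase Usp19 was not tested. In the secretory pathway, Erlin2, which marks inositol trisphosphate receptors for degradation at the endoplasmic reticulum, had 10 to 55 counts in vehicle (median 20) and 10 to 70 after DD (median 36). The log2 fold change of Erlin2 came to -0.34 (SE 0.19, adjusted p = 0.495), and 8 of 9 DD libraries lay under the vehicle mean. Tmed2, a cargo receptor between endoplasmic reticulum and Golgi, stood at 0.13 (SE 0.29).

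Neuronal and synaptic genes numbered 8, with 4 tested and none called; 3 of the 4 estimates were above 0. Ctxn1, a small neuronal membrane protein, had 4 to 65 counts in vehicle (median 23.5) and 13 to 141 after DD (median 62). Its share of tested counts was 0.438% to 1.62% and 1.07% to 2.09%, and its log2 fold change 0.24 (SE 0.18, adjusted p = 0.748), above the vehicle mean in 8 of 9 DD libraries. Marcks, a protein kinase C substrate at the membrane, stood at 0.26 (SE 0.20), calmodulin gene Calm2 at 0.13 (SE 0.27) and Sprn, a prion-like protein, at -0.043 (SE 0.19). The vesicle protein gene Cplx1 (complexin), with medians of 2 and 7 counts, Sncb (beta-synuclein), with 2 and 5, and Gnas, with 3 and 5, were among those not tested.

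Secreted factors and their processing had 3 tested genes and no call. Pcsk1, the convertase that cuts prohormones, was the gene with the most even direction among those that rested on few counts: 1 to 6 counts in vehicle (median 2), 2 to 12 after DD (median 5), above the vehicle mean in 9 of 9 DD libraries, and a log2 fold change of 0.51 (SE 0.34, adjusted p = 0.726). Inhbb, the beta B subunit of activins and inhibins, stood at -0.34 (SE 0.33), and the chemokine Ccl27a at 0.18 (SE 0.32). Among leukocyte-linked genes, Cd99, a surface glycoprotein of leukocyte passage through endothelium, had 30 to 134 counts in vehicle (median 68.5) and 23 to 314 after DD (median 123). The log2 fold change of Cd99 came to -0.22 (SE 0.14, adjusted p = 0.576), and to 0.039 without scaling factors. The lymphocyte GTPase Gimap4 stood at 0.27 (SE 0.27).

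Tysnd1, the protease that processes imported peroxisomal enzymes, had 40 to 169 counts in vehicle (median 73.5) and 48 to 379 after DD (median 183). Its share of tested counts was 2.18% to 5.003% in vehicle (median 3.48%) and 3.84% to 6.003% after DD (median 4.77%). The log2 fold change of Tysnd1 came to 0.23 (SE 0.13, adjusted p = 0.495), above the vehicle mean in 8 of 9 DD libraries. Without scaling factors, a setting that moved the median of the 57 genes from 0.070 to 0.30, Tysnd1 had a value of 0.47 (adjusted p = 0.0307). The pterin dehydratase Pcbd2 stood at 0.11 (SE 0.19).

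The glycolytic enzymes Aldoa and Pkm, at 3.77 and 3.09 times the negative probe, had medians of 3.5 and 4 counts in vehicle and 6 and 5 after DD, and were not tested. The 4 cytosolic ribosomal proteins, Rpl3, Rps26, Rps24 and Rpl23a, lay at 2.46 to 2.83 times, and none was tested. Of the abundant cell proteins, beta-actin (Actb) stood at a log2 fold change of 0.14 (SE 0.28) with medians of 5 and 12 counts, parathymosin (Ptms) at 0.37 (SE 0.30) with 4 and 7, and the chaperone Hsp90aa1 was not tested.

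Predicted and unnamed genes numbered 12, including 4 of the 10 strongest signals. Gm10265, Gm52523, Gm33888 and Gm46840 lay at 223, 127, 95.9 and 68.6 times the negative probe. Gm10265 had 126 to 496 counts in vehicle (median 209.5) and 163 to 1037 after DD (median 586), or 7.17% to 16.8% and 10.6% to 18.3% of tested counts. Gm34733 had 5 to 45 counts in vehicle (median 20) and 8 to 60 after DD (median 27), with a log2 fold change of -0.49 (SE 0.21, adjusted p = 0.425), the smallest adjusted p after the 2 called genes. Gm33888 stood at -0.34 (SE 0.18, adjusted p = 0.495), with 7 of 9 DD libraries under the vehicle mean, and AI413582 at 0.42 (SE 0.22, adjusted p = 0.495), above it in 7 of 9. Of the 11 tested, 4 estimates lay above 0 and 7 below, and none was called. The remaining 17 genes had no single role; 9 were tested, with log2 fold changes from -0.29 to 0.23 and no call. Chic2, a palmitoylated membrane protein, was the strongest of them at 72.0 times the negative probe, with 28 to 169 counts in vehicle and 35 to 328 after DD.

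The fixed lists of the p53 response, the topoisomerases, inflammation, astrocyte reactivity, neuroprotection, antioxidant defence and lipid transport had no gene above the limit. In the p53 and DNA damage list, 0 of 12 genes were above the limit, the highest being Mdm2, the ubiquitin ligase of p53, at 0.944 times the negative probe; Cdkn1a, the cell cycle inhibitor that p53 induces, had 1 to 2 counts in vehicle and 1 to 5 after DD and stood at the lowest value in 13 of the 17 libraries. The topoisomerase genes had 0 of 4 above the limit, with Top2a at 0.923 and Top2b at 0.913 times. Inflammation, cytokines and complement had 0 of 11, with C1qa highest at 0.938. Reactive astrocytes had 0 of 6 (S100a10 highest, 1.49), neuroprotective factors 0 of 8 (Ntf3 highest, 0.938; Bdnf, 0.913), antioxidant response 0 of 10 (Txnrd1 highest, 0.942) and cholesterol and lipid transport 0 of 8 (Apoc1 highest, 0.944; the mouse Apoe probe, 0.913). Differences in these genes were not detectable at this depth, which does not show that they are absent. Mouse Apoe was replaced by human APOE3 in these mice, and whether its probe reads the human transcript was not tested. For that probe, depth and the replacement cannot be told apart.

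Markers of cell types could not check the captured tissue. Of 46 marker genes in 11 lists, Olig2 alone was above the limit, and the lists' median ratios ran from 0.892 to 0.931. Slc17a7, which loads glutamate into synaptic vesicles of excitatory neurons, came nearest at 1.88 times, with 1 to 4 counts in vehicle and 1 to 11 after DD, and Gad1, the GABA-synthesising enzyme of inhibitory neurons, followed at 1.48. Gfap of astrocytes and Aif1 of microglia lay at 0.923 and 0.915 times, and both the cortex layer list (highest Rorb, 0.938) and the hippocampus list (highest Zbtb20, 0.923) were at background. The mean ratio of the oligodendrocyte list, which holds Olig2, was 1.75 to 4.72 in vehicle libraries and 1.43 to 5.70 after DD; for the microglia list it was 0.876 to 1.29 and 0.828 to 1.55, and for the astrocyte list 0.876 to 1.39 and 0.915 to 1.25.

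Region was therefore described with the measured genes themselves, in APOE4 vehicle libraries, which are in neither group of the DD contrast (those of cortex share its fit, and so its scaling and estimate of spread). Between hippocampus and cortex of APOE4 vehicle mice (8 libraries each), 28.1% of the 57 genes were higher in hippocampus and 33.3% lower at an adjusted p under 0.05. Mtch2 and Ripply2 were both among the higher ones (log2 1.15, SE 0.18, edgeR adjusted p = 1.7e-05, and log2 0.98, SE 0.18, adjusted p = 6.2e-05). Of the 16 genes higher in hippocampus, 12 had a DD estimate below 0 in APOE3 cortex, with a median of -0.21; of the 19 lower there, 10 had one above 0, with a median of 0.0059. Over the 54 genes the Pearson correlation of the 2 sets of estimates was -0.084, and 0.055 without Mtch2 and Ripply2. The rank (Spearman) correlation was -0.21, and -0.14 without those 2 genes. Of the 54 genes, 20 had estimates of the same sign in both sets. Genes are not independent replicates. How much hippocampal or other tissue each cortex region held was not measured, and its part in the result was not tested.

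The next question was whether the DD difference depended on the APOE allele, the region or the partner drug. Between APOE3 and APOE4 cortex, 0.0% of the 57 genes had a DD effect that differed (edgeR; 1 gene had an unadjusted p under 0.05, and DESeq2 called 0). The difference of effects, APOE3 minus APOE4, was -0.16 (SE 0.31, adjusted p = 0.911) for Mtch2 and -0.30 (SE 0.31, adjusted p = 0.791) for Ripply2. In APOE4 cortex, where 12.3% of the 57 genes passed, Mtch2 and Ripply2 stood at -0.71 (SE 0.22) and -0.60 (SE 0.21) after DD, in libraries all different from the APOE3 ones. The 7 calls there stayed the same with values of 1 set to 0. They became 0 with upper-quartile scaling and with scaling to the negative probe. Counts summed over runs and runs as a random block also gave 0 calls. DESeq2 gave 4, with Mtch2 but without Ripply2. Without scaling factors 2 genes were called, both higher (Coa5 and Ctxn1). The same 2 were called, and Ripply2 was not, with Mtch2 left out of the scaling and the test. With a minimum count of 5 the calls were Camk2n1 and Igfbp5. Without a filter there were 13 calls, again without Mtch2 and Ripply2. All APOE3 libraries carry 1 code in their titles and all APOE4 libraries another, and each code was read as a plate. Genotype and that code cannot be told apart. Of the 54 genes, 36 had estimates of the same sign in both genotypes, with a Pearson correlation across genes of 0.479, and 0.319 without Mtch2 and Ripply2. Xrn1 stood at -0.51 in APOE4 against -0.46 in APOE3, and Ctxn1 at 0.51 against 0.24, while Chic2 stood at -0.45 against 0.0059 and Hmga2 at -0.50 against -0.11.

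In a fit to the 4 APOE3 groups with DD or vehicle, 33 genes were tested and 0.0% had a DD effect that differed between cortex and hippocampus (0 had an unadjusted p under 0.05; no other tool was run). The cortex minus hippocampus difference was -0.072 (SE 0.24, adjusted p = 0.965) for Mtch2 and 0.00082 (adjusted p = 0.995; no SE is given, since the F statistic it is derived from was near 0) for Ripply2. In hippocampus itself 6.06% of the 33 were called: Mtch2 at -0.73 (SE 0.17, adjusted p = 0.00236) and Ripply2 at -0.82 (SE 0.21, adjusted p = 0.00306), both lost with upper-quartile scaling and with counts summed over runs. Regions of both kinds may come from the same sections, which the labels do not say.

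DC, the regimen in which cyclophosphamide at 40 mg/kg per week takes the place of docetaxel, was compared with DD directly in APOE3 cortex (9 DD and 8 DC libraries). By edgeR 0.0% of the 57 genes differed, and 12 had an unadjusted p under 0.05. DESeq2 called 1, Mplkip, whose estimate against vehicle rested on DD library 2. Without that library the highest edgeR estimate of DD minus DC among the 57 genes was 0.59. The DD minus DC difference was 0.31 (SE 0.22, adjusted p = 0.430) for Mtch2 and 0.065 (SE 0.25, adjusted p = 0.904) for Ripply2. Against the vehicle libraries, which both regimens share, Mtch2 stood at -0.87 after DD and -1.18 after DC, and Ripply2 at -0.91 and -0.97. The smallest adjusted p in the direct comparison was 0.167, for Mplkip (1.42, SE 0.53). Lrr1 and Chic2 were lower in DD than DC by estimate (-0.36, SE 0.15, and -0.35, SE 0.16, adjusted p = 0.182 each), and Cd99 higher (0.34, SE 0.14, adjusted p = 0.182), none of which passed.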

How the data were processed

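The deposited values are expected counts of each probe target with no depth scaling, for 19962 genes and the negative probe in 97 libraries. Values were whole in all but 4 rows, and the lowest value was 1 in 94 libraries. Per the submitters' processing notes the build is mm10; the counting software is not given in the sources used here. Values were rounded and fitted with edgeR 4.0.16 (R 4.3.3, limma 3.58.1): TMM scaling, filterByExpr with minimum count 10, 1 model over the 6 cortex groups (49 libraries), quasi-likelihood test, Benjamini-Hochberg adjustment over the 57 genes tested. SEs were derived from the F statistic. DESeq2 1.42.0 and the alternatives given at the end were also run.

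Single values per library were tested by exact permutation of the libraries between groups, two-sided. Labels give the same batch for all libraries, but the titles carry 2 codes, and 0 of them hold both genotypes. The labels do not say what the codes are. They were read as plates, and the letter and number that end each title as the well. Libraries of 1 group in neighbouring wells formed a run (5 DD, 4 vehicle); with runs as a random block the consensus correlation was 0.247. No libraries were identical (0 pairs). No sample was left out.

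Genes named are those called, the 10 strongest, the 5 smallest p in each direction, those nearest the ratio limit and the genes of the fixed lists. Some genes that this rule names are left out of the text; counts include them. The genes and lists were chosen with earlier results of these data known; the region comparison, the split at a total count of 30000, the total count as a covariate and the ratio to Gm10265 were added after seeing the data.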

Additional observations from a re-analysis of the deposited data

Results flagged for a closer look

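Of 114 groups of scaled log2 CPM values examined (57 genes, DD and vehicle), 7 (6.14%) held a library far from the others, where chance gives about 1 in 20. Ripply2 had its lowest value, 11.08, in DD library 3, which held 3 counts. Mplkip had its highest, 15.35, in DD library 2, which held 44 counts. Erlin2 was lowest in DD library 6 at 12.70. Txlnb, a taxilin family protein, was lowest in DD library 3 at 10.01, and the predicted gene Gm52782 in DD library 9 at 10.34, each from 1 count, the lowest value in the table. In vehicle, Hmga2 was lowest in library 2 at 12.80 (10 counts) and Fdx2 in library 6 at 12.70 (11 counts). The call of Ripply2 held without DD library 3.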

How the results depend on the processing

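The 2 calls of DD against vehicle in APOE3 cortex became 6 without a low-count filter (19962 genes tested, 0 of the 6 above the negative probe limit), 0 with a minimum count of 5 (253 tested; 8 with an unadjusted p under 0.05), 0 with scaling to the negative probe (2 unadjusted), 0 with counts summed over runs (4 unadjusted), 0 among libraries with a total count under 30000 (5 unadjusted), 1 over 30000 and 1 (Ripply2) with Mtch2 left out of the scaling. Upper-quartile scaling, DESeq2, runs as a random block, values of 1 set to 0, only the 17 libraries, total count as a covariate and each of the 17 fits without 1 library gave 2 calls, the same 2 genes. Mtch2 ranged from -0.95 to -0.74 and Ripply2 from -1.02 to -0.80 without 1 library, with adjusted p between 0.00104 and 0.0317. Among uncalled genes, signs were followed only for the 5 with the smallest p in each direction and for Elof1 and Tubg1. Of these, estimates changed sign without a filter (Gm33888 0.022, Cd99 0.24, Tubg1 0.17) and without scaling factors (Cd99 0.039, Tubg1 0.014). They also did so under 30000 (Erlin2 0.040) and over 30000 (Cd99 0.019, Ctxn1 -0.065). The cause was not tested. The log2 difference of the negative probe was 0.50 over libraries and 0.46 over runs (exact permutation p = 0.0952). The ratio limit gave 249, 82 or 54 genes at 1.5, 2 or 3. The 3 direct comparisons of DD effects kept 0 calls with upper-quartile scaling and summed runs; DD against DC had 1 (Mplkip) with a minimum count of 5, with scaling to the negative probe and with DESeq2, and 6 without a filter, Mtch2 among them. No paired analysis was possible because the labels give no replicate number that groups share. Few counts limit all genes but the strongest: 28 of the 82 were not tested.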
